A study of Homo sapiens with 8 samples.

Results

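The genes described here encode linker and variant histones that are known, or annotated in part, to make polyadenylated mRNA: the linker histones H1-2 and H1-10, the H2A variants H2AZ1, H2AZ2, H2AX, H2AJ and MACROH2A1, and the H3.3 genes H3-3A and H3-3B. They were taken by name, 9 genes of the 52716 with a summed value, and all 9 were found. The cells were SH-SY5Y, an established human neuroblastoma line used as a model of sympathetic neurons, and their mRNA was sequenced. One group of 4 libraries (replicates 17 to 20) came from undifferentiated cells, with no dose or day recorded, and the other 4 (replicates 21 to 24) from cells given 1 µM 9-cis retinoic acid, a ligand of the retinoic acid and retinoid X receptors, for 7 days. The effect of time in culture and that of the agent cannot be told apart. The labels do not say whether the libraries of a group came from separate cultures, so every p-value measures only the spread from library to library, and that may be technical. Undifferentiated replicates 17 and 18 ran in lane 7, all others in lane 8.

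DNA in the nucleus is wound around octamers of core histones, and linker histones bind where it enters and leaves. Most core and linker histone genes lie in clusters, are switched on in S phase and make mRNA that ends in a stem-loop in place of a poly(A) tail. Variant histones are made through the cell cycle, mostly from genes with introns and poly(A) signals, and are put into chromatin outside replication by their own chaperones: H3.3 by HIRA or by DAXX with ATRX, and H2A.Z by the SRCAP and EP400 complexes. H2A.Z marks promoters, H2AX is phosphorylated at DNA breaks, and macroH2A carries a large non-histone domain. In neurons that have left the cell cycle, H3.3 is known to replace the canonical H3 over time.

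Sequences upstream of some of these genes are shown first, as a description, and the levels below do not rest on them. The upstream windows are the 250 bases before the RefSeq start (GRCh38.p14), read 5′ to 3′ on the strand of the gene, for the 2 genes that were called lower and for the most abundant one, H3-3B. Capitals mark matches to CCAAT and TATANA on either strand, and in H1-2 also to AAACACA, a box known upstream of linker histone genes. The H1-2 window is chr6:26056471-26056720, that of H2AZ1 is chr4:99950276-99950525 and that of H3-3B is chr17:75779780-75780029, each on the minus strand.
H1-2: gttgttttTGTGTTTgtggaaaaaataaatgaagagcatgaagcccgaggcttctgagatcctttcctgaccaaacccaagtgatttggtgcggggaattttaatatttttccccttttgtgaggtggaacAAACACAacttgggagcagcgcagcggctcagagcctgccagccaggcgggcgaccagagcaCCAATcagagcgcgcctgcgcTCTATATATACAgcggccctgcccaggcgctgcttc
H2AZ1: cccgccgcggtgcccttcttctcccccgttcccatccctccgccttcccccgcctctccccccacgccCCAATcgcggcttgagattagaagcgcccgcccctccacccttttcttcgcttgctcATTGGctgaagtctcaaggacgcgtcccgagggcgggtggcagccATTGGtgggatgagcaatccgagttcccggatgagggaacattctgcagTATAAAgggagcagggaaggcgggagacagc
H3-3B: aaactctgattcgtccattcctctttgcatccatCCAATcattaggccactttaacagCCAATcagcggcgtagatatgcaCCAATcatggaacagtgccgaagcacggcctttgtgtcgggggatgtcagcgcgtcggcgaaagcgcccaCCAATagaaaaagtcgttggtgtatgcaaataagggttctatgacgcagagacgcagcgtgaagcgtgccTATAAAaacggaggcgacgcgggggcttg

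CCAAT was found in the windows of 8 of the 9 genes, H1-10 being the exception, and in 32% of all 35116 RefSeq windows of this length. TATANA was found in 5 of the 9 (H1-2, H1-10, H2AZ1, H2AX and H3-3B) and in 17.7% of all windows. In H1-2 it matched 4 times within a single run, as overlapping matches. AAACACA was found in 2 of the 9, H1-2 and H3-3A, and in 4.82% of all windows. TTTNNCGC was found in 1 of the 9, MACROH2A1, and in 5.92% of all windows. Both CCAAT and TATANA were found in the called H1-2 and H2AZ1 and in the uncalled H2AX and H3-3B. The RefSeq starts lay 42 bases (H1-2), 113 bases (H2AZ1) and 1 base (H3-3B) from the start of the leading transcript in GENCODE 29. Part of the H2AZ1 window lies inside the gene as annotated there, chr4:99948086-99950388. The whole H3-3B window lies inside its annotated gene, chr17:75776434-75785893, so it is upstream of the start used and not of the whole gene.

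The 3′ ends differed among the genes in a way that bears on a library made from polyadenylated RNA. H2AX is known to make both kinds of end. Its leading transcript held the histone stem-loop 1044 bases before its end, and a poly(A) signal (AATAAA or ATTAAA) 45 bases before the end. The stem-loop stands at chr11:119094891-119094920 on the minus strand (GRCh38), shown with the 16 letters of the stem-loop pattern in capitals. The pattern, searched on the sense strand, is GG, any 2 bases, CTTTT, any 1 base, AG, any 2 bases, CC.
H2AX: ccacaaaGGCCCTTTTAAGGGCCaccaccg
The same 16-letter pattern was found in 0.0731% of 73868 protein-coding transcripts, in 18 of 38 cluster histone genes in the data and in 1 of the 9 genes described here. H1-2 lies in the large histone cluster of chromosome 6, at chr6:26055787-26056428. Its model is 642 bases long and ends at the stop codon, so neither a stem-loop nor a poly(A) signal is part of it, and which end the counted H1-2 RNA had cannot be seen here. A poly(A) signal stood in the last 50 bases of the leading transcript in 6 of the 9 genes and was not found there in H1-2, H2AZ2 and MACROH2A1.

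Levels are given in TPM, a measure of transcript abundance that corrects for transcript length and sums to 1000000 in each library. Read depth is unknown. The libraries held 16264 to 17369 genes at 1 TPM or more and 15.1% to 17.7% of TPM in mitochondrially encoded genes. Of 11 sympathetic neuroblastoma markers 10 had a mean of 1 TPM or more, and TH, which makes the catecholamine precursor, was at 0.137 TPM or lower. Their summed level was 2347 to 2441 TPM in undifferentiated and 1422 to 1678 TPM in differentiated libraries. Of these markers only PHOX2A had a higher mean in differentiated libraries (224 and 427 TPM), and HAND2 changed little (440 and 422 TPM). Of 5 mesenchymal markers 4 passed 1 TPM, and their sum was 263 to 288 TPM in undifferentiated and 1098 to 1215 TPM in differentiated libraries, with PRRX1 at 0.0121 TPM or lower. The 3 blood markers summed to 0.48 to 0.853 and 19.7 to 23.4 TPM, with CD68 the only 1 over 1 TPM and HBA1 at 0 throughout. The endothelial marker PECAM1 had no value among the summed genes, and no other endothelial marker passed 1 TPM. Of the epithelial markers 1 of 4 did (sums of 1.43 to 2.19 and 1.44 to 2.22 TPM, with KRT5 at 0), and of the Schwann cell markers 2 of 4 (5.36 to 7.92 and 13.8 to 16.9 TPM, with SOX10 at 0). The part these differences play in the histone values was not tested.

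**Figure D1:**
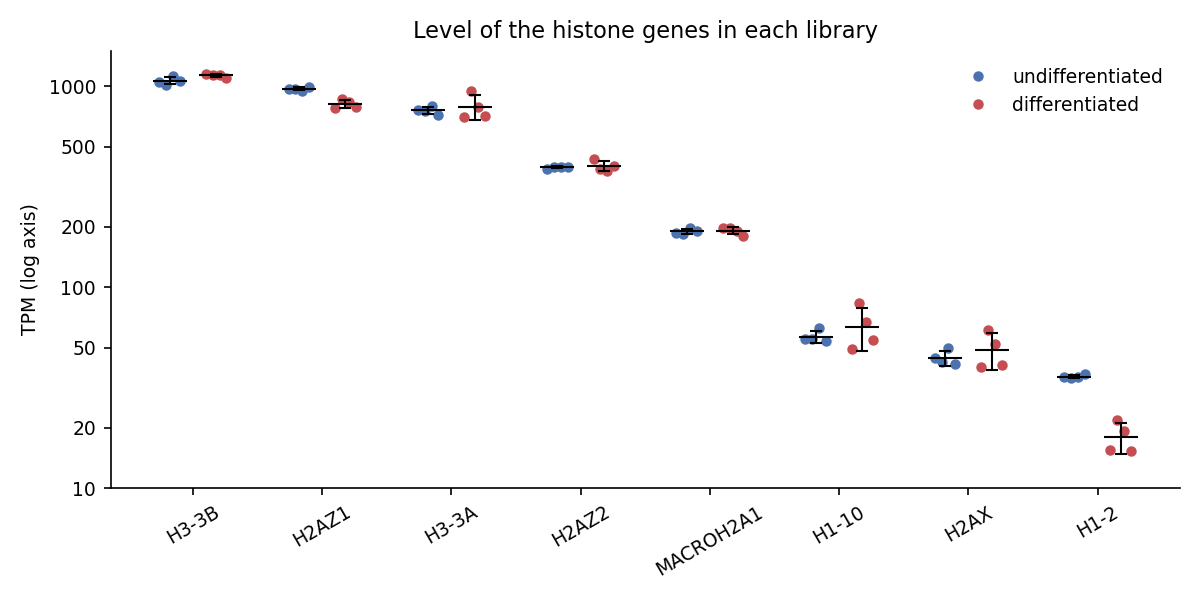
Level of 8 histone genes in TPM (log axis) in each of the 4 undifferentiated (blue) and 4 differentiated (red) libraries, with the mean and SD in black. The libraries of the groups do not overlap for H1-2 and H2AZ1, and overlap for the other 6; H2AJ, at 0.0304 TPM or lower, is not drawn.

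The linker histone H1-2 fell to about the 0.508-fold level on differentiation, H2AZ1 fell by 15.8% of its mean, and the other tested genes did not pass the test. Of the 9 genes 8 passed the minimum for testing, an average of 1 TPM, and 2 were called, both lower, by limma on log2(TPM+1) at a Benjamini-Hochberg adjusted p under 0.05. Over all 17076 genes tested the same rule called 51.3%, with 17.4% lower and 33.9% higher, so the share called among these genes was below that of the table. The groups did not overlap in 2 of the 8, against 49.6% of all genes tested. Their median log2 fold change was 0.04 beside 0.10 for all genes. Together the 9 genes held 3511 ± 63.2 TPM (SD, n = 4) in undifferentiated and 3458 ± 177 TPM (SD, n = 4) in differentiated cells. In bulk RNA, fewer cells of a type and less RNA per cell cannot be told apart.

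In undifferentiated cells the order from high to low was H3-3B, H2AZ1, H3-3A, H2AZ2, MACROH2A1, H1-10, H2AX, H1-2 and H2AJ, and no 2 neighbours in that order overlapped in their libraries. The order of the means was the same in differentiated cells. There, however, H2AZ1 overlapped H3-3A and H1-10 overlapped H2AX. H3-3B, H2AZ1 and H3-3A were the 3 genes above 700 TPM in both groups.

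Among the linker histones, H1-2 was at 35.6, 35.3, 35.7 and 36.8 TPM in undifferentiated replicates 17 to 20 and at 15.4, 21.8, 19.2 and 15.3 TPM in differentiated replicates 21 to 24. Every differentiated library lay below every undifferentiated one. The mean went from 35.9 ± 0.641 to 17.9 ± 3.14 TPM (SD, n = 4 each), a log2 fold change of -0.98 (SE 0.109, limma adjusted p = 1.15e-04). An exact two-sided permutation test of the libraries gave p = 0.0286, the smallest that 4 against 4 allow. Of all genes tested, 3.61% had a lower log2 fold change. H1-2 is a somatic linker histone made mainly in S phase.

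H1-10, a linker histone encoded by a gene of its own outside the clusters (chr3:129314771-129316277), was at 54.9, 54.9, 62.5 and 53.7 TPM in undifferentiated and at 49.2, 83.8, 67.2 and 54.5 TPM in differentiated libraries. The groups overlapped, since the differentiated libraries spanned the undifferentiated range. The log2 fold change was 0.14 (SE 0.154, limma adjusted p = 0.478). Most of the spread came with replicates 22 and 21, the highest and the lowest.

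As a share of the summed TPM of H1-2 and H1-10, H1-2 held 39.4%, 39.1%, 36.4% and 40.7% in undifferentiated and 23.9%, 20.6%, 22.2% and 21.9% in differentiated libraries. The groups did not overlap, and the share does not depend on scaling between libraries. The mean fell by 16.7 percentage points, from 38.9 ± 1.80% to 22.2 ± 1.34% (SD, n = 4 each; exact permutation p = 0.0286, 0.0429 after Benjamini-Hochberg over the 3 pairs compared).

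The H2A.Z genes encode nearly identical proteins. H2AZ1 was at 968, 971, 948 and 992 TPM in undifferentiated and at 781, 861, 838 and 785 TPM in differentiated libraries. All differentiated libraries lay below all undifferentiated ones, although the step was small next to that of H1-2. The mean went from 970 ± 17.9 to 816 ± 39.7 TPM (SD, n = 4 each), a log2 fold change of -0.25 (SE 0.041, limma adjusted p = 0.00111, exact permutation p = 0.0286). Its gene lies at chr4:99948086-99950388.

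H2AZ2 (chr7:44826791-44848083) was at 388, 396, 398 and 395 TPM in undifferentiated and at 434, 388, 380 and 400 TPM in differentiated libraries. The differentiated libraries spread to both sides of the undifferentiated ones, and the log2 fold change was 0.02 (SE 0.045, limma adjusted p = 0.739). H2AZ1 held 71.1 ± 0.485% of the TPM of the pair in undifferentiated and 67.1 ± 2.24% in differentiated cells (SD, n = 4 each). That fall of 4.02 percentage points had an exact permutation p of 0.0286 and 0.0429 after Benjamini-Hochberg over the 3 pairs. With lane 8 alone (2 against 4 libraries, where the smallest possible exact p is 0.133) the difference was -3.90 points for H2AZ1 and -16.4 points for H1-2.

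H2AX, the variant that is phosphorylated around DNA breaks (chr11:119093854-119095467), was at 44.4, 42.5, 49.7 and 41.2 TPM in undifferentiated and at 40.0, 61.5, 52.3 and 41.1 TPM in differentiated libraries. Replicates 22 and 23 lay above, and replicates 21 and 24 below, all undifferentiated libraries. The log2 fold change was 0.11 (SE 0.138, limma adjusted p = 0.540). H2AJ, an H2A variant known from ageing cells (chr12:14774383-14778002), was at 0.0304 TPM or lower in each library and was not tested.

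MACROH2A1 (chr5:135333900-135399914) was at 187, 184, 196 and 191 TPM in undifferentiated and at 196, 196, 190 and 180 TPM in differentiated libraries. The groups overlapped, and the log2 fold change was 0.01 (SE 0.040, limma adjusted p = 0.900). Its paralog MACROH2A2 was at 60.5 ± 1.34 and 64.7 ± 7.5 TPM (limma adjusted p = 0.376).

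H3-3A (chr1:226061851-226072001) was at 759, 754, 793 and 721 TPM in undifferentiated and at 704, 949, 790 and 714 TPM in differentiated libraries. Replicate 22 stood above all other libraries and the rest overlapped, with a log2 fold change of 0.05 (SE 0.092, limma adjusted p = 0.679). H3-3B (chr17:75776434-75785893), which encodes the same protein, was at 1053, 1019, 1119 and 1064 TPM in undifferentiated and at 1147, 1136, 1142 and 1099 TPM in differentiated libraries. In 3 of the 4 differentiated libraries it was above all undifferentiated ones, and the log2 fold change was 0.09 (SE 0.037, limma adjusted p = 0.0775, exact permutation p = 0.0571). Without undifferentiated replicate 19, its highest library in that group, the log2 fold change was 0.11 and passed the test (limma adjusted p = 0.0387), as it did with quantile normalization (0.26, limma adjusted p = 0.00702), while median-of-ratios scaling turned its sign (-0.04, limma adjusted p = 0.624).

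H3-3A held 41.6 ± 0.896% of the TPM of the H3.3 pair in undifferentiated and 41.0 ± 3.25% in differentiated cells (SD, n = 4 each; exact permutation p = 0.771). Much of the H3-3B level was in models that the annotation does not call coding. The leading model, H3F3B-213, a processed transcript without a coding sequence, held 39.9% of H3-3B in undifferentiated and 38.8% in differentiated cells. Over protein-coding transcripts alone, H3-3A held 55.7 ± 0.728% and 54.3 ± 4.32% of the pair, so the order of the H3.3 genes turned with the transcripts counted.

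**Figure D2:**
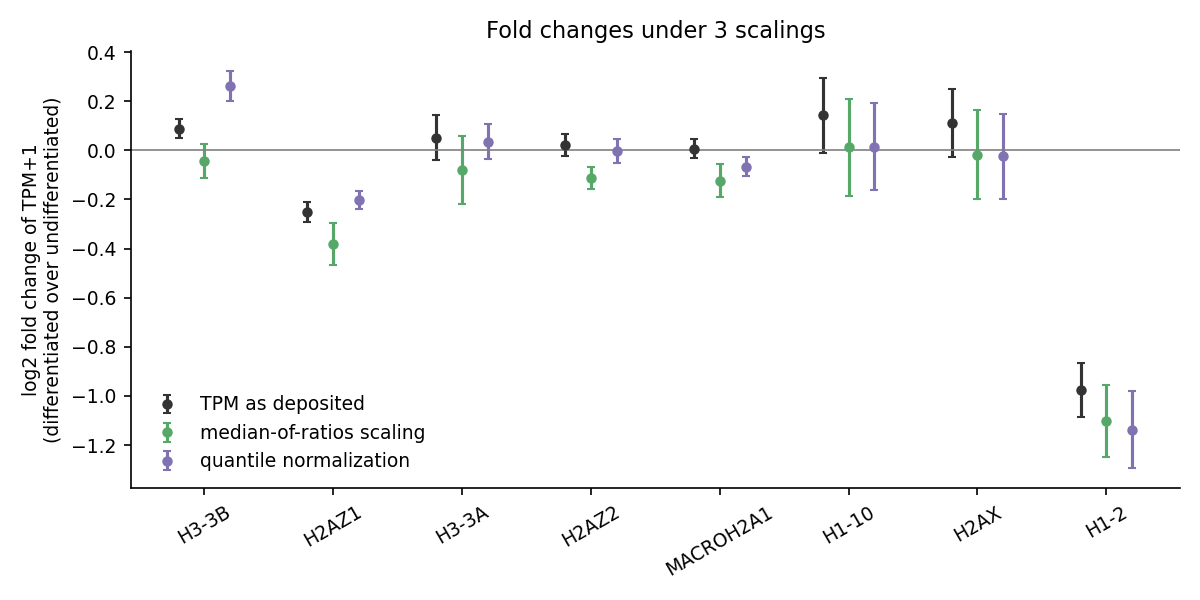
Log2 fold change of TPM+1, differentiated over undifferentiated, with its standard error from limma, for 8 histone genes under 3 scalings of the libraries. H1-2 and H2AZ1 lie below 0 under each, while H2AX, H2AZ2, MACROH2A1, H3-3A and H3-3B change sign between scalings.

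Rescaling the libraries moved the whole table: the median log2 fold change over the tested genes was 0.10 as deposited, -0.02 after median-of-ratios scaling and -0.07 after quantile normalization, and the share of calls that were higher went from 66.1% to 50.8% and 45.0%. Against this shift, H1-2 and H2AZ1 were called lower in all 19 alternatives that were run, with limma adjusted p of 2.16e-05 to 0.00423 and of 2.94e-04 to 0.0237. H2AX, H2AZ2, MACROH2A1 and H3-3A passed the test in none of them, and H1-10 neither.

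Differentiated replicate 22 stood apart with transcript length. Among genes with a mean of at least 5 TPM, those of 4000 bases or more lay -0.34 (median log2) from the mean of the other 3 differentiated libraries in replicate 22 and 0.26 in replicate 21, while genes under 1000 bases lay within 0.02 in every library. Of the 8 tested histone genes 7 were above the mean of the other 3 in replicate 22, and 0 of 8 in replicate 24. The largest such deviations were 0.56 for H1-10, 0.47 for H2AX and 0.38 for H1-2. The mean transcript lengths of these genes were 1507, 1603 and 642 bases. In replicate 22 the median deviation of all genes was 0.0055 under 1000 bases and -0.02 at 1000 to 2000 bases. What lay behind the deviations of the histone genes was not tested. Without replicate 22 the differentiated means were 57.0 TPM for H1-10, 44.5 TPM for H2AX, 736 TPM for H3-3A and 16.6 TPM for H1-2. Refitted without it, H1-2 (log2 fold change -1.07, limma adjusted p = 2.16e-05) and H2AZ1 (-0.28, limma adjusted p = 2.94e-04) were still called lower, and the other 6 did not pass, at 0.0021 for H1-10, 0.03 for H2AZ2, -0.0058 for H2AX, -0.0064 for MACROH2A1, -0.04 for H3-3A and 0.09 for H3-3B.

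**Figure D3:**
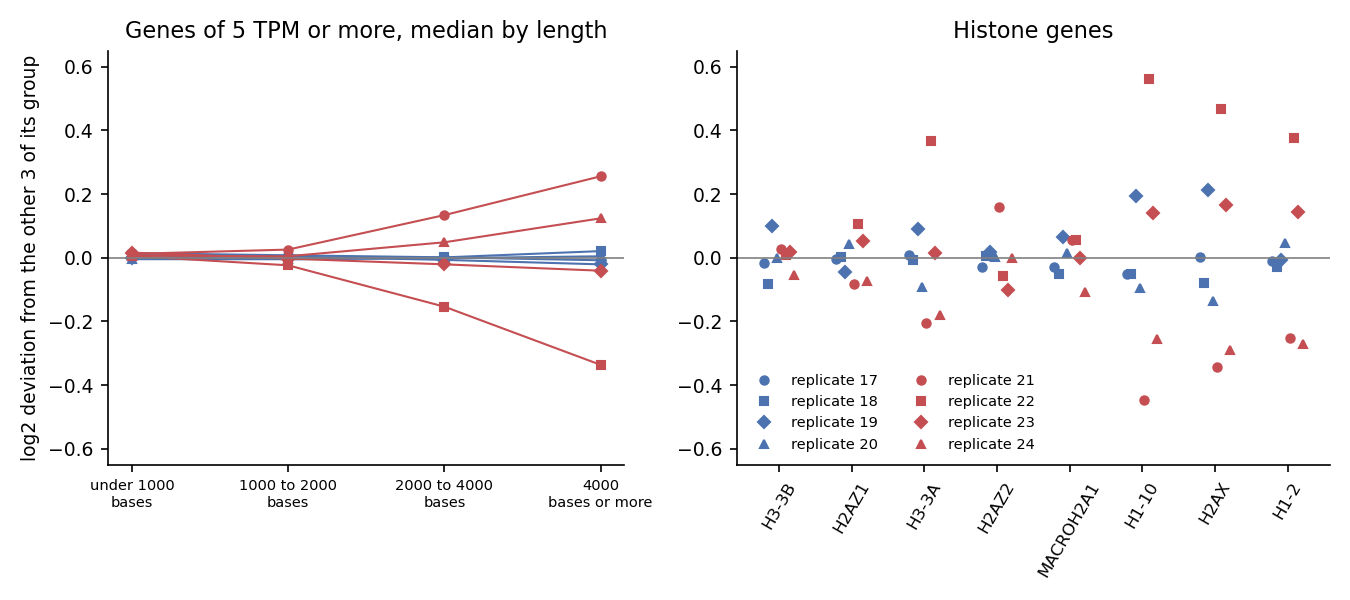
Log2 deviation of each library from the mean of the other 3 of its group: left, the median by transcript length over genes with a mean of at least 5 TPM; right, each histone gene. Replicate 22 (red squares) goes down to -0.34 for the longest genes and up to 0.56 for H1-10.

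Transcript forms of MACROH2A1 and H2AZ2 differed between the groups by less than the size set for a call. Share here means the percentage of a gene's TPM in a transcript. Of 22951 transcripts tested, limma on the arcsine square root of the share called 2.39% at an adjusted p under 0.05 and 10 percentage points. Of the 8 transcripts of 3 histone genes tested, 0 were called. At an unadjusted limma p under 0.05 there were 4 of the 8, against 20.9% of all transcripts tested. An adjusted p under 0.05, whatever the difference, was reached by 2 of the 8, against 3.29% of all.

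MACROH2A1 is spliced with 1 of 2 mutually exclusive exons. Exon A gives macroH2A1.1, whose large domain binds ADP-ribose, and exon B gives macroH2A1.2, which does not. Exon A has 91 bases at chr5:135350823-135350913 and exon B 100 bases at chr5:135352946-135353045 (GRCh38, minus strand). They are printed from the GENCODE 29 transcripts to show how far they differ, with their longest shared run, of 10 bases, in capitals.
Exon A: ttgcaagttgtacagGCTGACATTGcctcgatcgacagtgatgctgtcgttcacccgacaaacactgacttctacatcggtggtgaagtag
Exon B: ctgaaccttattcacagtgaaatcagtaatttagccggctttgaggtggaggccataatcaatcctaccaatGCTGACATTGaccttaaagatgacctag

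The transcript with exon A, H2AFY-202 (369 codons), held 12.6% of MACROH2A1 in undifferentiated and 20.2% in differentiated cells, a difference of 7.63 points (limma adjusted p = 0.0469). The leading transcript with exon B, H2AFY-201 (371 codons), held 47.0% and 39.4%, a difference of -7.58 points (limma adjusted p = 0.172). Without replicate 22 that difference was -10.0 points (limma adjusted p = 0.0239), which is a call. With lane 8 alone the difference for H2AFY-202 was 8.24 points (limma adjusted p = 0.292), and leaving out any single library took its limma adjusted p to between 0.0503 and 0.136.

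Transcripts were also summed by exon, a measure added after these values were seen and given without a test. Only 1 transcript, H2AFY-202, holds exon A, so its level is that of the transcript above. Exon A was at 27.4, 21.6, 24.4 and 21.9 TPM in undifferentiated and at 37.7, 45.3, 40.6 and 30.8 TPM in differentiated libraries. Exon B went from 112 ± 5.32 to 94.0 ± 9.81 TPM (SD, n = 4 each). The 16 transcripts with neither exon, left out of the share below, were at 54.1 ± 4.11 and 58.0 ± 10.4 TPM (SD, n = 4 each). Exon A made up 20.5%, 16.1%, 17.1% and 16.7% of the transcripts with either exon in undifferentiated, and 28.9%, 29.6%, 30.9% and 26.7% in differentiated libraries. The groups did not overlap in this share, while the summed level of the gene overlapped as given above. The models H2AFY-202 and H2AFY-201 also differ in their first exon, so the share does not isolate the exon. Of 3 genes known to regulate the choice of this exon, none passed the test, and QKI, which favours exon A, was at 58.9 ± 2.36 and 54.4 ± 7.16 TPM (limma adjusted p = 0.304), but was lower under median-of-ratios scaling (limma adjusted p = 0.00564) and quantile normalization (limma adjusted p = 0.0141). Without replicate 22, DDX5, another of the 3 and named after its values were seen, was higher (log2 fold change 0.16, limma adjusted p = 0.00234, against 0.11 and 0.0697 with all libraries).

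H2AZ2 has alternative last exons, and the end of the protein depends on which is used. The near one gives H2A.Z.2.1 (128 codons) and the far one the shorter H2A.Z.2.2 (114 codons), a form known to bind chromatin less tightly. The coding ends are printed with the stop codon in capitals, from chr7:44830144-44830163 for the far and chr7:44834501-44834562 for the near exon (GRCh38, minus strand).
Far last exon: agaagagaaggtgttctTAG
Near last exon: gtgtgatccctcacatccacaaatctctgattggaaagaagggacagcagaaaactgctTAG

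The far-exon transcript H2AFV-201 held 21.0% of H2AZ2 in undifferentiated and 27.4% in differentiated cells, a difference of 6.40 points (limma adjusted p = 0.0475). With lane 8 alone the limma adjusted p was 0.361, leaving out any single library other than replicate 22 gave 0.0637 to 0.139, and leaving out replicate 22 gave 0.0327. The near-exon transcript H2AFV-202 held 62.8% and 54.4%, a difference of -8.37 points (limma adjusted p = 0.0596). Summed by last exon, again after the values were seen and without a test, the far exon made up 23.4%, 22.4%, 22.4% and 21.8% in undifferentiated and 27.1%, 27.6%, 29.7% and 28.3% in differentiated libraries. The groups did not overlap. The far-exon transcripts were at 86.9 ± 1.75 and 110 ± 3.74 TPM and the near-exon ones at 300 ± 5.69 and 281 ± 19.9 TPM (SD, n = 4 each). Shorter models are part of both sums: of 40 to 102 codons with the near exon, and H2AFV-206 (76 codons) with the far one. H2AFV-206 went the other way, from 4.06 TPM in undifferentiated to 0.315 TPM in differentiated cells. H2AFV-207, which has another end, was left out of the share (7.87 and 9.75 TPM). The far exon has 3373 bases and the near one 335. Long genes differed among the differentiated libraries as given above, most between replicates 21 and 22, where this share was 27.1% and 27.6%. The part of length in the share was not tested.

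**Figure D4:**
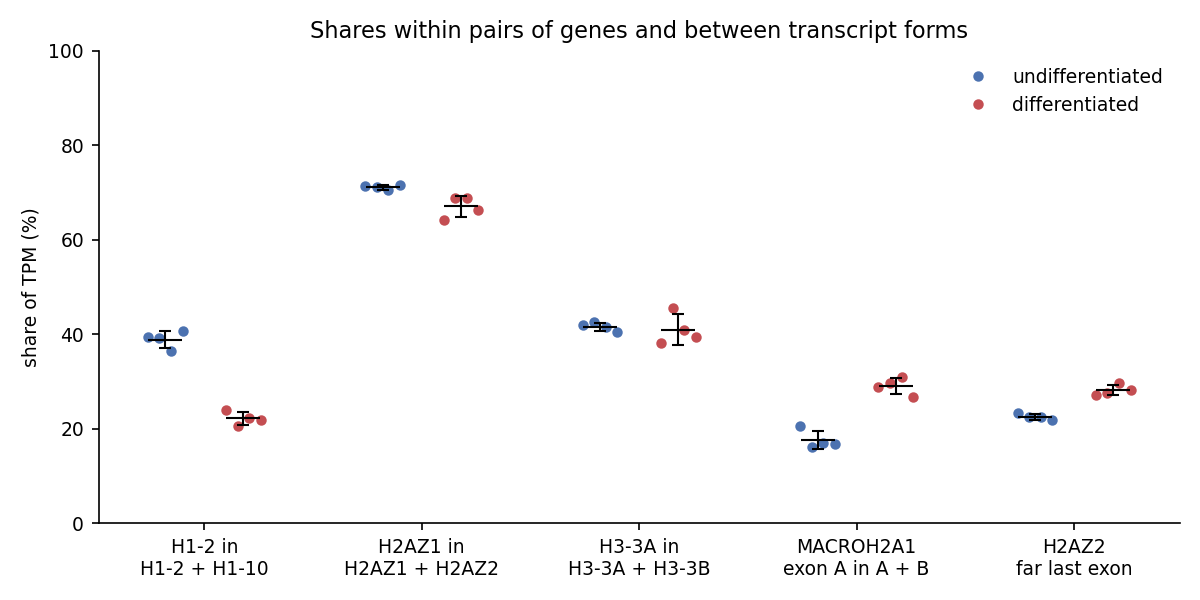
Share of TPM (%) in each library for 3 pairs of histone genes, for exon A of MACROH2A1 among transcripts with exon A or B, and for the far last exon of H2AZ2 among transcripts with the far or near one, with the mean and SD in black. Undifferentiated (blue) and differentiated (red) libraries do not overlap except for H3-3A, where they stand at 41.6% and 41.0%.

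The other histone genes and the factors that make, carry and exchange histones were read from lists chosen with earlier results of these data known. Of 18 tested cluster histone genes (38 in the data of 66 listed), 7 fell and 1 rose, and their median was -0.31 on the log2 scale. The gene that rose was H2BC21 (log2 fold change 0.26), and with median-of-ratios scaling 9 were lower and 0 higher. The largest falls were in H2BC11 (7.83 ± 1.58 to 1.81 ± 0.436 TPM, log2 fold change -1.65, limma adjusted p = 4.38e-05), H2BC4 (-1.34), H2BC8 (4.23 ± 0.776 to 1.61 ± 0.398 TPM) and H2AC17 (log2 fold change -0.67). Most cluster histone mRNA lacks a poly(A) tail, so these levels are of whatever passed the mRNA selection. Of 5 other variant histone genes tested 1 rose and 1 fell, with a median of 0.23 on the log2 scale. The one that fell was CENPA, the H3 variant of centromeres, from 41.5 ± 2.03 to 24.7 ± 2.89 TPM (log2 fold change -0.73, limma adjusted p = 1.12e-04).

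Of 7 H3.3 chaperone genes 1 fell and 1 rose. DAXX, which loads H3.3 at repeats, fell from 90.6 ± 2.89 to 69.0 ± 7.76 TPM (log2 fold change -0.39, limma adjusted p = 0.00309). ASF1A, which hands H3 and H4 to HIRA, rose by 0.21 on the log2 scale (limma adjusted p = 0.0160), but with 0.09 under median-of-ratios scaling it did not pass (limma adjusted p = 0.359). Under that scaling and under quantile normalization the list had 0 higher and 4 lower.

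Of 15 genes of H2A.Z exchange 6 fell and 2 rose. ANP32E, which takes H2A.Z off chromatin, fell from 27.7 ± 1.94 to 12.8 ± 3.48 TPM (log2 fold change -1.09, limma adjusted p = 0.00102). NAP1L1, an H2A and H2B chaperone, fell from 524 ± 5.53 to 377 ± 5.88 TPM (-0.48), and RUVBL2 and ACTR6, of the exchange complexes, fell by 0.34 each. Of 15 general and replication-coupled chaperones 9 fell and 1 rose, with NPM1 (log2 fold change -0.64), IPO4 (-0.55), SSRP1 (-0.50) and MCM2 (-0.48) the largest falls. DMAP1 (0.33) and ZNHIT1 (0.28), of the exchange complexes, and ASF1B (0.39), a general chaperone, were the genes of these lists that rose, and ZNHIT1 and ASF1B did not pass with median-of-ratios scaling (limma adjusted p = 0.269 and 0.104). Like H2BC21, they are named after their values were seen.

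Of 16 genes of histone mRNA transcription and 3′ end processing 5 rose and 4 fell. ERI1, a nuclease that trims the histone stem-loop, rose from 18.5 ± 0.550 to 70.3 ± 5.21 TPM (log2 fold change 1.87, limma adjusted p = 9.2e-08). SLBP, which binds that stem-loop, rose from 52.0 ± 1.60 to 72.1 ± 8.03 TPM (0.46, limma adjusted p = 0.00112). CCNE1, a cyclin of S phase entry, rose by 0.43 and NCBP1, of the cap-binding complex, fell by 0.56 on the log2 scale. With median-of-ratios scaling this list had 3 higher and 7 lower. Of 13 genes of H2AX signalling 3 fell (EYA1, a phosphatase of H2AX, log2 fold change -1.11; MDC1, which binds phosphorylated H2AX, -0.54; EYA3, -0.50) and PPP4C, a phosphatase subunit, rose (0.42), without passing under median-of-ratios scaling (0.29, limma adjusted p = 0.126).

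Cell cycle genes fell beside H1-2. Of 19 S phase genes 13 fell and 0 rose, led by SLC29A1 (70.5 ± 2.48 to 34.7 ± 1.94 TPM), PRIM1 (log2 fold change -0.60), MCM7 (-0.53) and MCM6 (-0.50). Of 22 G2 and M phase genes all 22 fell, with a median of -0.68, led by CENPF and CCNB2 (-1.21 each), CENPE (-1.17) and AURKA (-1.03). MKI67, a marker of cycling cells, went from 58.7 to 37.4 TPM. The part of the cell cycle in the histone values was not tested.

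**Figure D5:**
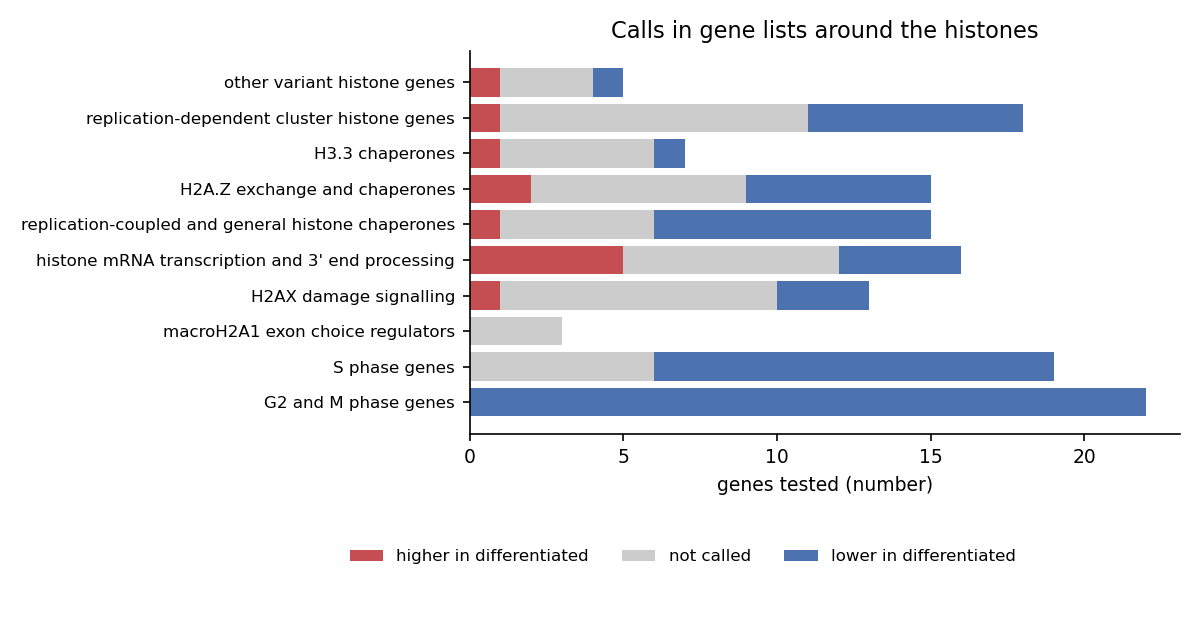
Number of tested genes in each of 10 lists that were higher (red), not called (grey) or lower (blue) in differentiated cells by limma. All 22 G2 and M phase genes were lower. Genes of histone mRNA transcription and 3′ end processing went both ways, 5 of 16 higher and 4 lower. Over all genes tested 33.9% were higher and 17.4% lower.

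Over the 8 libraries, the protein-coding genes whose centred log2(TPM+1) lay nearest to each histone gene by root mean square distance included E2F5 (0.0804) for H1-2, and MRPL44 (0.0254) and ATP5F1C (0.0273) for H2AZ1. H1-10 and H2AX were each nearest to the other (0.0461), followed by FBLL1 for H1-10 and RPL13 for H2AX. The nearest were GLE1 and GPR180 for H2AZ2, PSIP1 and SMNDC1 for MACROH2A1, RAC3 and GTF3A for H3-3A, and EFS and TSPAN6 for H3-3B. These are descriptions over 8 libraries that share 2 groups.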

How the data were processed

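The authors deposited TPM for 194993 Ensembl transcripts in 8 libraries. They used FastQC 0.11.2, Salmon and GRCh37, per the submitters' processing notes; not given in the sources used here are the Salmon version, annotation release and strand setting. TPM keeps no depth. Transcripts were matched by identifier to GENCODE 29 (GRCh38), 92.8% of them, holding 93.2% to 95.0% of the TPM, and summed per gene. Genes whose mean was at least 1 TPM were tested with limma 3.58.1 (R 4.3.3; intensity trend, group as the only term) on log2(TPM+1), a scale that understates changes of low genes. Transcript shares were tested where the gene had at least 5 TPM in both groups, for mean shares of 10% to 90%, and pairs of genes with exact two-sided permutation tests (scipy 1.17.1). The limma fits of genes and of shares were tested on simulated data. In the simulated shares every transcript was given the same spread, which the real shares need not have.

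Salmon divides reads among similar sequences, so genes with paralogs or pseudogenes (H3-3A, H3-3B, H2AZ1, H2AZ2, cluster histones) are uncertain, as are overlapping genes: UNK overlaps H3-3B by 1123 bases and H1-10-AS1 overlaps H1-10 by 886, each on the opposite strand. Pseudogenes named after these genes held at most 1.57 TPM for any of them, and pseudogenes under other names were not summed. Named genes were the 9 histone genes, up to 4 called genes per list with the largest changes, further genes (among them MACROH2A2, CENPA, SLBP, MKI67 and QKI) and the 2 nearest genes in profile; some named genes are not reported here. The members and lists were chosen with earlier results of these data known. Promoter sequences are from RefSeq (GRCh38.p14), where all 9 genes matched, and other sequences from GENCODE 29.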

Additional observations from a re-analysis of the deposited data

Results flagged for a closer look

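H1-10 in undifferentiated replicate 19 was at 62.5 TPM, apart from the other 3 libraries of its group (53.7 to 54.9 TPM): its gap to the next was 0.859 of the range of the group, above the 95% limit of Dixon's test for 4 samples. Of 26 groups of 4 checked this was the only 1, and chance gives about 1 in 20.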

How the results depend on the processing

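No paired analysis was possible because the groups share no replicate numbers. H1-2 and H2AZ1 stayed called and lower under every alternative run, and their shares of a pair kept their direction. Log2 fold changes that turned sign, none of them past the test, were, with median-of-ratios scaling, -0.111 (H2AZ2), -0.0172 (H2AX), -0.124 (MACROH2A1), -0.0803 (H3-3A) and -0.0428 (H3-3B); with quantile normalization, -0.00285 (H2AZ2), -0.0251 (H2AX) and -0.0659 (MACROH2A1), while H3-3B became 0.263 and passed; and with lane 8 only, -0.0227 (MACROH2A1). Leaving out each library in turn gave -0.0191 to 0.0453 for H2AZ2, -0.00579 to 0.197 for H2AX, -0.00646 to 0.0342 for MACROH2A1, -0.0406 to 0.102 for H3-3A and 0.0683 to 0.113 for H3-3B, which passed without replicate 19. It gave 0 to 1 called histone transcript shares, -0.907 to 0.713 points for H3F3B-201, -0.0456 to 2.20 points for H3F3B-212 and -2.12 to 0.363 points for the share of H3-3A in its pair, which was 0.03002 with lane 8 only. The cause was not tested. Adding the TPM of pseudogenes named after the genes, and summing by exon, were chosen after seeing the data. The first left the count of called histone genes at 2. With lane 8 only, 6360 genes were called. Depth is unknown, so values near 0 have no stated error.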
